A study of Mus musculus with 12 samples.

Results

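The annotated small RNA genes described here lie within introns of a gene on the opposite strand, in count data from mouse brain. They are features of GENCODE M21 with the biotype snRNA, snoRNA, miRNA, misc_RNA or scaRNA. At least 50% of the exon bases of each lie inside exactly 1 opposite-strand gene, called the host, at most 10% lie inside any other, at least 80% of the overlap is intronic, and at least 10 counts were summed over the 12 libraries. Of 932 small RNA features in that position, 572 met the count minimum and 360 did not, out of 5705 small RNA features and 55144 annotated features in all. The 572 members comprised 215 snRNA, 142 snoRNA, 134 miRNA, 80 misc_RNA and 1 scaRNA features in 519 hosts.

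The mice were C57BL6JL males of 3 to 5 months, and cortex and hippocampus were mixed. Brains were naive or were collected 90 min after MECS, a maximal electroconvulsive shock at 85 mA lasting 1 s. The lysate was irradiated with ultraviolet light at 400 mJ/cm2, which crosslinks RNA to protein. Input RNA was taken from it, and the rest was precipitated with an antibody to U1-70K, a protein of the U1 small nuclear ribonucleoprotein. The 4 groups (input and U1 RNA of naive brain, input and U1 RNA of MECS brain) held 3 libraries each of strand-specific total RNA depleted of ribosomal RNA, read as single ends of 100 bases. The labels do not say how many animals stand behind a library, there was no control precipitate, and a U1 to input ratio therefore cannot tell binding to U1 apart from unequal recovery of RNA. Nor do they say whether libraries of a group came from separate animals, so the tests measure the spread between libraries, which may be technical.

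Small nuclear RNAs form the spliceosome: U1 pairs with the 5′ splice site, and U6 replaces it there and builds the catalytic core. H/ACA snoRNAs guide pseudouridylation of other RNAs, scaRNAs do the same in Cajal bodies, miRNAs are cut from hairpins and repress mRNAs, and 7SK RNA, annotated as misc_RNA, holds the elongation kinase P-TEFb inactive. The mouse genome carries many diverged copies of these RNAs, inside and outside genes, and a Gm symbol marks such a predicted gene. Which strand setting the counting used is not stated in the sources used here, so reads of a small RNA and reads of the intron of its host cannot be told apart, and every level below is a level of the annotated interval.

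The sequences of the leading copies are shown first, because copies of U6, Snora17 and 7SK form the largest families among the members. A BLAST search against the named small RNAs (at least 50% of the copy aligned, e-value at most 1e-05) gave 373 of the 572 members a named relative. U6 was the nearest relative of 157 snRNA members, with a median identity of 86.0% (range 72.7 to 100%). Shown are the 3 U6-like members of most counts and 1 that differed between U1 and input RNA. The former are Gm24340 in Celf2 (chr2:7350097-7350193, plus strand), Gm22127 in Tenm2 (chr11:36722882-36722987, plus) and Gm24461 in Nckap1 (chr2:80558685-80558787, plus). The latter is Gm23302 in Abcc4 (chr14:118585039-118585138, plus). All sequences are GENCODE M21 transcripts on GRCm38 (mm10), 5′ to 3′, and capitals mark ACAGAGA, the stretch of U6 that pairs with the 5′ splice site.
Gm24340: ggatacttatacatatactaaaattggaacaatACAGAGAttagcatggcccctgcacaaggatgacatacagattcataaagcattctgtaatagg
Gm22127: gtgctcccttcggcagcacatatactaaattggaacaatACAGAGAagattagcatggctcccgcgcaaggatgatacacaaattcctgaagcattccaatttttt
Gm24461: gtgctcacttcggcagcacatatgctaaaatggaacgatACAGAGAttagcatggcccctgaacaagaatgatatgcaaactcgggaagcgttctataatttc
Gm23302: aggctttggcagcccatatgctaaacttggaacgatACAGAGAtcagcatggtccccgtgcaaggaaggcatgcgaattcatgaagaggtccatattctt

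The stretch ACAGAGA, searched on both strands, was on the own strand of 91 of the 157 U6-like members (58.0%) and of 47 of the 65 U6-like features of the same position with under 10 counts (72.3%). On the host's strand it was in none of either set. Over all 5705 small RNA features it was on the own strand of 12.5%. The letters GGTAAG, a 5′ splice site sequence to which U1 can pair, were on the own strand of 12 of the 572 members and on the host's strand of 12, against 1.21% and 2.96% of all small RNA features. The letters AATAAA, the polyadenylation hexamer, were on the own strand of 21 members (3.67%) and on the host's strand of 15 (2.62%), against 2.82% and 2.31%. The members had a median of 108 exon bases and all small RNA features 107.

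Snora17, an H/ACA snoRNA, was the nearest relative of 76 snoRNA members, with a median identity of 82.5% (range 72.9 to 90.9%). Snora17 itself (chr2:26639190-26639321, minus strand) is followed by the Snora17-like members with most counts and by those that differed between U1 and input RNA. They are Gm22499 in Ube2e2 (chr14:18814169-18814303, plus), Gm25501 in Ank2 (chr3:127005369-127005500, plus), Gm26184 in Dlgap2 (chr8:14273181-14273311, minus), Gm22506 in Trpm3 (chr19:22235521-22235618, minus) and Gm24730 in Fbxl17 (chr17:63202738-63202854, plus). Capitals mark the longest run that each shares with Snora17, which was 14, 20, 28, 12 and 13 bases long.
Snora17: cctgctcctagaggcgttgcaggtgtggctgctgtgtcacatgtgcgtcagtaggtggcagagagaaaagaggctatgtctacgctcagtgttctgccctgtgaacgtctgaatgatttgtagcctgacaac
Gm22499: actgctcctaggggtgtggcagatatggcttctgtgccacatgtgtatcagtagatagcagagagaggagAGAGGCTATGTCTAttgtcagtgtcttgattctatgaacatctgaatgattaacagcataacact
Gm25501: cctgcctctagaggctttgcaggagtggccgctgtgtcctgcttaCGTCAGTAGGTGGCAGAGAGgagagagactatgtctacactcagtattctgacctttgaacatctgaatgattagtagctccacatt
Gm26184: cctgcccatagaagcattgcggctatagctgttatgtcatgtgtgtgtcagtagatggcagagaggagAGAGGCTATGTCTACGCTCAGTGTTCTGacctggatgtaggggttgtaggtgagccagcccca
Gm22506: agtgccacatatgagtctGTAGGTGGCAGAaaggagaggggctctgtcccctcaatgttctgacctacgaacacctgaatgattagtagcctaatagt
Gm24730: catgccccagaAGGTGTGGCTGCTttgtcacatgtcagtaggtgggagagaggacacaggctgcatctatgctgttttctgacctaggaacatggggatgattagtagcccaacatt

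Among misc_RNA members 37 were nearest to 7SK, with a median identity of 74.0%. Of the 4 misc_RNA members that differed in a comparison, Gm22136 was 7SK-like with 70.1% identity. The others had no named relative within the limits of this search, which does not show that they are unrelated to 7SK. The 37 are likewise only the copies that met those limits. Gm24858 in Sv2b (chr7:75275089-75275411, plus strand, 323 bases) differed between MECS and naive input RNA. Gm23221 in Paqr5 (chr9:62020594-62020686, plus) differed between U1 and input RNA in both states and is shown for that, with no capitals.
Gm23221: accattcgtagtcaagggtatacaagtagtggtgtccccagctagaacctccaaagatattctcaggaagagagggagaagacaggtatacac

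Of the 134 miRNA members, 51 carried a symbol other than a Gm number, and 43 of those were in the RefSeq table, with 1 Gm-numbered member more. They gave 55 mature sequences with 53 different seeds (bases 2 to 8). The seed CAGUAGU was shared by Mir199a-1 in Dnm2 and Mir199b in Dnm1, hosts that encode dynamins, the GTPases that pinch off endocytic vesicles. The mature sequences of these and of the other leading named miRNA members, Mir378b in Msi2, an RNA-binding protein, and Mir466i in Cdk13, a transcription kinase, are from RefSeq on GRCm38.p6, with the seed in capitals.
mmu-miR-199b-3p: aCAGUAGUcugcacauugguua
mmu-miR-199a-3p: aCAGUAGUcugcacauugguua
mmu-miR-199a-5p: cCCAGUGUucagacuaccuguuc
mmu-miR-378b: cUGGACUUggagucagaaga
mmu-miR-466i-3p: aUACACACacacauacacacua

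Small RNA features opposite to an intron had counts more often than those in other positions. Of 792 small RNA features in an opposite-strand intron with no gene on their own strand, 667 (84.2%) had a count in some library and 552 (69.7%) had at least 10, with a median of 52.5 counts. Of 1557 features of the same biotypes in introns of a gene on their own strand, and with no opposite-strand gene, 383 (24.6%) had a count, 61 (3.92%) had at least 10, and the median was 0. Of 2246 that overlapped no gene, 28.4% had a count and 5.70% had at least 10, again with a median of 0. The count minimum is part of the rule that chose the members, so these shares describe the position, with no test.

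Each biotype but scaRNA showed that order. Among snRNA features 73.6% of 280 opposite to an intron had at least 10 counts, against 2.77% of 253 in same-strand introns and 4.44% of 765 outside genes. The figures for snoRNA features were 70.1% of 201, 4.42% of 453 and 6.17% of 600, and for miRNA features 60.1% of 213, 3.79% of 738 and 5.51% of 635. For misc_RNA they were 78.4% of 97, 3.09% of 97 and 9.09% of 231. Of the few scaRNA features, 1 of 1, 3 of 16 and 1 of 15 in these positions had at least 10 counts. Features with a gene on both strands fell between or below these. With a same-strand intron as well, 19 of 84 (22.6%) had at least 10 counts, and with a same-strand exon as well, 3 of 40 had any count and none had 10.

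**Figure D1:**
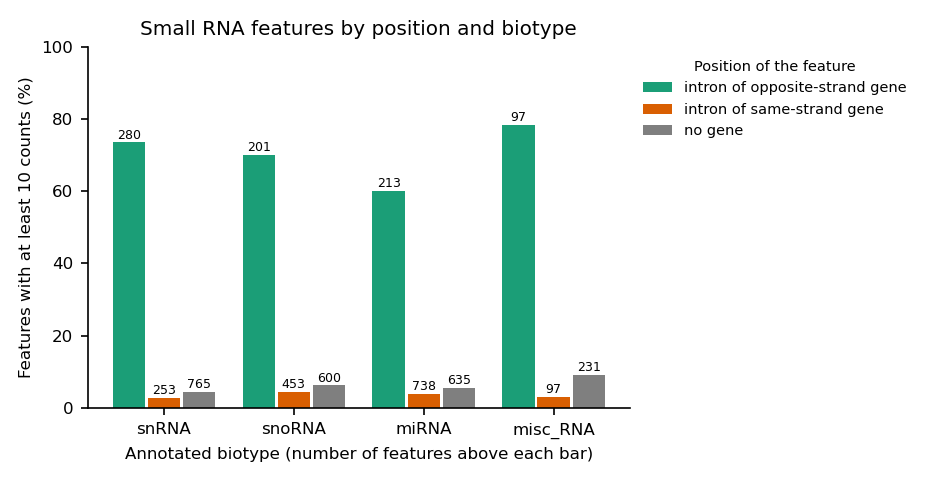
Share of small RNA features with at least 10 counts summed over 12 libraries (y axis, percent, from 0), by annotated biotype (x axis) and by position (colour), with the number of features above each bar. The scaRNA features are not drawn. In each biotype drawn the bar for introns of an opposite-strand gene stands between 60.1% and 78.4%. The other bars stay at or below 9.09%.

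Features of other biotypes in opposite-strand introns had counts as often. Of 4727 of them, 73.9% had at least 10 counts. They were longer, with a median of 855 exon bases against 108 for the 792 small RNA features, so these shares compare unlike lengths. Counts per kb were taken over the exon bases plus the 99 further bases at which a 100-base read can start and still overlap. On that scale their median was 146 per kb, against 233 per kb for the 792 small RNA features.

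The named small RNAs that are abundant in cells were near 0. Of the 10 rows read for comparison as spliceosomal snRNA, 7 were at 0 in all 12 libraries. The U1 genes Rnu1a1, Rnu1b1, Rnu1b2 and Rnu1b6 were among them, also in the U1-70K precipitates. The 10 rows held 12 counts in all, of which 10 were in Rnu73b, which is annotated as a snoRNA. Of 22 rows of other abundant noncoding RNAs 18 were at 0, and Rn7sk, the 7SK gene, had 62 counts. Of 23 miRNA genes known from brain, 13 were at 0 and the 23 held 142 counts. None of these is a member. Only uniquely aligned reads appear to be in the gene rows, since a separate row of each table held 1.59 to 1.91% of the listed reads as not uniquely aligned. Whether this has a part in the low counts of these RNAs was not tested.

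Copies that share their whole sequence with another had fewer counts. Of the 932 features, 64 shared it, with a median of 5 counts and 25 members (39.1%), whereas 868 had a sequence of their own, with a median of 36 counts and 547 members (63.0%). Among the 222 U6-like features the median was 61 counts for the 95 with under 85% identity to U6, 54.5 for the 68 from 85 to 95% and 23 for the 59 with at least 95%. Gm24967 in Tut4, which is 100% identical to Rnu6, still had a count in each of the 12 libraries, between 4.47 and 13.8 CPM, which is counts scaled to a common library total.

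The members held 94861 counts, with a median of 99.5 each and a maximum of 2170. A count was present in all 12 libraries for 388 of them. At the edge of the rule, 5 members had 10 counts and 7 features of the same position had 9. All 572 lay wholly inside the host, 569 were wholly intronic, and the lowest intronic share of a member was 84.0%, with 77.4% the highest below the rule. Introns that held a member had a median length of 17.9 kb, and the nearest host exon was a median of 3.90 kb away, with 6 members within 1 read length of an exon. The hosts were protein-coding for 543 members. The median host of a member was 114 kb long, and the median member lay 44.4% of the way along it.

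By biotype, the median density was 441 counts per kb for snRNA, 504 for snoRNA, 366 for miRNA and 510 for misc_RNA members, on the scale that adds 99 bases. The longer misc_RNA members (median 276 bases) held 24.8% of the member counts. The single scaRNA member, Gm26039 in Nup54, a nuclear pore gene, had 26 counts. Density was only weakly related to where a member lay. Over the 572 members, Spearman's rho with host length was 0.06, with relative position in the host 0.02, with distance to the nearest host exon 0.06 and with the GC share of the sequence -0.03. These are descriptions across features of the same 12 libraries.

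Density followed the host. In 189 hosts that also held other features in opposite-strand introns, Spearman's rho between the density of the members and that of the other features was 0.63, both read in the same libraries. The median ratio of members to other features was 0.901, and members were denser in 87 hosts and not in 102. Those other features had a median of 563 counts per kb in the 189 hosts with a member and of 12.5 per kb in 104 hosts whose small RNA features all had under 10 counts.

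**Figure D2:**
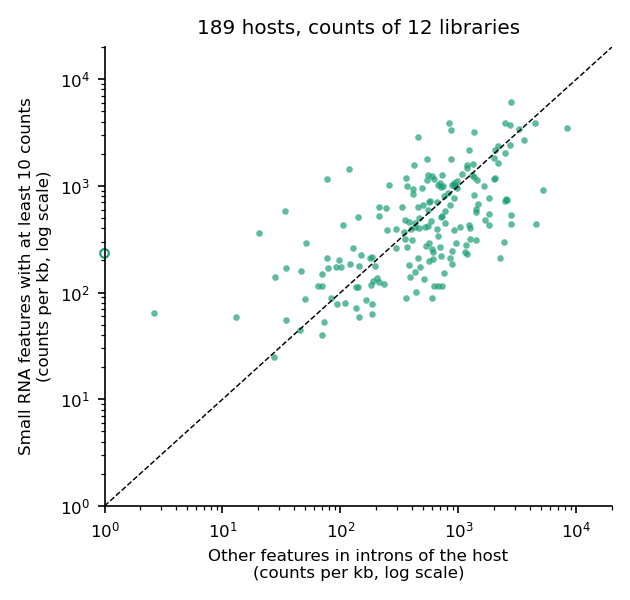
Counts per kb summed over 12 libraries (log axes) of the members (y axis) against other features in introns of the same host on the opposite strand (x axis), 1 point for each of 189 hosts. The dashed line marks equality, and the open point at the left edge stands for a host whose other feature was at 0. Points lie on both sides of the line, 87 above it.

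Small RNA features of 1 host mostly shared their side of the count minimum. In 83 hosts with at least 2 of the 932 features, all were members in 46, none was in 28, and both kinds occurred in 9. Of the 41 hosts with exactly 2 members, the denser member exceeded the other by a median of 1.63-fold, and 25 pairs were within 2-fold. The closest pair was Gm24491 and Gm24622, at 53.4 and 53.6 counts per kb, and the widest was Gm25828 and Gm27843 in Nhsl2, at 124 and 906 per kb. Spearman's rho over the 41 pairs was 0.53.

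Among the densest members, Gm27660 (misc_RNA) in Dlg2, which encodes the postsynaptic scaffold PSD-93, had 7068 counts per kb, Gm44327 (miRNA) in Ppp3ca, a calcineurin subunit, 6125, and Gm27470 (misc_RNA), also in Dlg2, 4867. Also dense were Gm27887 (miRNA) in Lsamp, a neuronal adhesion protein, at 4517, Mir378b in Msi2 at 3869, Mir199b in Dnm1 at 3746, Gm22499 (snoRNA) in Ube2e2, a ubiquitin-conjugating enzyme, at 3718 and Gm25219 (misc_RNA) in Kmt2e, a chromatin regulator, at 3639 counts per kb. Gm22478 (snoRNA), the member in Snrnp70, which encodes the precipitated U1-70K protein, stood at 3470. The 2 Dlg2 members lie in the same intron, at chr7:91126348-91126555 and chr7:91123002-91123211 on the minus strand. The member with the lowest density was Gm26274 in Col5a3, a collagen gene, with 23.8 counts per kb.

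Levels are given from here on as CPM scaled by the TMM factors of edgeR, which compare 1 feature across libraries. Gene rows held 704432 to 1962312 counts per library, 1.42 to 1.84% of the listed reads, while 88.3 to 91.3% of the reads were in no feature, and the members held 3905 to 13137 counts per library. These low counts limit the differences that could be detected. A lower level in bulk tissue can mean fewer cells of a type or less RNA per cell, which cannot be told apart here.

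As a share of gene counts, the members had 0.521, 0.554 and 0.605% in naive input, and 0.570, 0.662 and 0.663% in MECS input. The share was 0.621, 0.669 and 0.559% in naive U1 RNA, and 0.707, 0.713 and 0.705% in MECS U1 RNA. The 3 MECS U1 libraries were above the 9 others, and the other groups overlapped. The mean was 0.617% ± 0.0556 (SD, n = 3) in naive U1 and 0.708% ± 0.00412 (SD, n = 3) in MECS U1, where a 2-sided exact permutation test gave p = 0.1, the smallest that 3 against 3 allows, and 0.327 after Benjamini-Hochberg adjustment over the 36 tests of this kind. The same exact test gave p = 0.1 for MECS U1 against MECS input (0.632% ± 0.0537, SD, n = 3), p = 0.2 for MECS against naive input (0.560% ± 0.0421, SD, n = 3) and p = 0.2 for naive U1 against naive input. Without mitochondrial and ribosomal RNA features in the denominator, the difference in percentage points changed from 0.0717 to 0.0331 for MECS against naive input (exact permutation p = 0.7). For MECS against naive U1 RNA it changed from 0.0914 to 0.0797 (exact permutation p = 0.1). It changed from 0.0566 to 0.0917 for U1 against input in naive brain and from 0.0763 to 0.138 in MECS brain.

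Each biotype but scaRNA had its highest mean share in MECS U1 RNA. The snRNA members had 0.171% ± 0.00988 of gene counts in naive input, 0.194% ± 0.0183 in MECS input, 0.181% ± 0.0194 in naive U1 and 0.209% ± 0.00402 in MECS U1 (SD, n = 3 each). The snoRNA members had 0.142% ± 0.0137, 0.149% ± 0.00943, 0.165% ± 0.00993 and 0.179% ± 0.00341 in the same order. The miRNA members had 0.110% ± 0.00818, 0.130% ± 0.0184, 0.118% ± 0.0113 and 0.144% ± 0.00158, and the misc_RNA members 0.138% ± 0.0113, 0.158% ± 0.0132, 0.152% ± 0.0160 and 0.176% ± 0.00516. For MECS against naive U1 RNA the 2 groups did not overlap in any of these 4 biotypes (exact p = 0.1 each, adjusted 0.327).

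**Figure D3:**
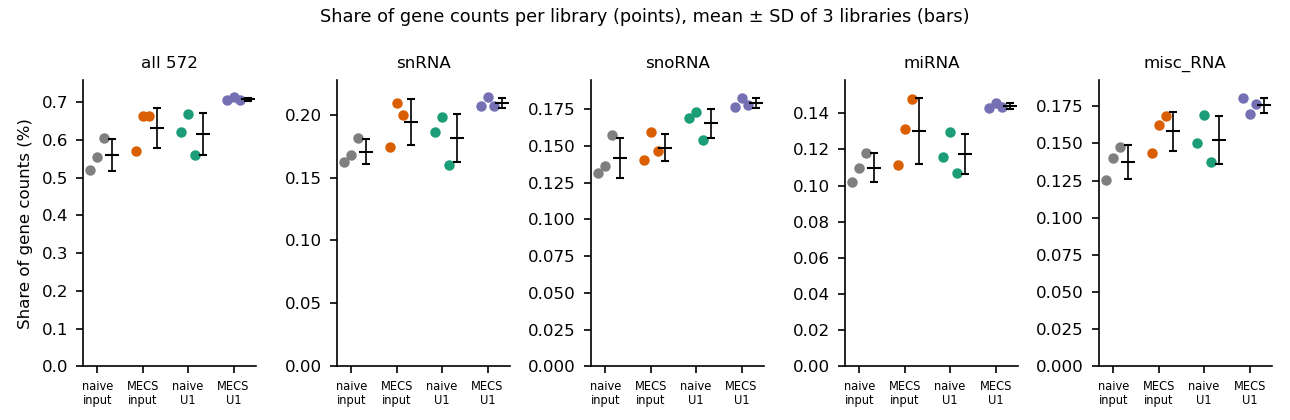
Share of gene counts (y axis, percent, from 0) held by all 572 members and by each biotype in the 12 libraries, by group (x axis), with the points for single libraries and the bars for mean ± SD of 3. The 3 MECS U1 libraries lie close together, between 0.705 and 0.713% for all members, above every other library.

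The Snora17-like members had a higher share in U1 than in input RNA of the same state in every library. They held 0.0736, 0.0735 and 0.0903% of gene counts in naive input and 0.108, 0.101 and 0.0955% in naive U1 RNA. In MECS brain they held 0.0774, 0.0868 and 0.0827% in input and 0.0955, 0.103 and 0.103% in U1 RNA. The groups did not overlap in either state (exact p = 0.1 each, adjusted 0.327 over the 36 tests). The U6-like members overlapped between U1 and input in both states, with means of 0.135% against 0.129% in naive and 0.151% against 0.141% in MECS brain (exact p = 0.6 and 0.4). On the log2 scale the tested Snora17-like members had a median U1 to input difference of 0.26 in naive brain (36 tested) and 0.25 in MECS brain (43 tested), against 0.03 and 0.02 over all features tested. Over all tested members, these included, the medians were 0.06 in naive brain and 0.16 in MECS brain.

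Fold changes of single members were tested with edgeR's quasi-likelihood test on all features that passed its filter on low counts, with Benjamini-Hochberg adjustment over all of them and a threshold of 0.05. Between MECS and naive input RNA, 231 of the 572 members could be tested. Of these 1 rose and 0 fell, against 0.606% of 10402 features called, 0.51% higher and 0.0961% lower. At an unadjusted p under 0.05 there were 14 members higher and 3 lower, against 9.66% of features, 5.24% higher and 4.42% lower. Groups did not overlap for 19 members higher (8.23%) and 6 lower (2.60%), against 8.93 and 6.02% of features. The median log2 difference of the tested members was 0.07, and that of all tested features -0.02. In 76 hosts with values for both, it was 0.09 for members and 0.08 for other features in introns of the same host on that strand. Spearman's rho between them over these hosts was 0.02, so the like medians do not mean that members changed with their hosts.

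The member that rose was Gm24858, opposite to an intron of Sv2b, which encodes a synaptic vesicle glycoprotein. It had 36.9, 40.4 and 69.3 CPM in naive input and 96.1, 75.1 and 133 CPM in MECS input, and the groups did not overlap. The log2 difference was 0.99 (SE 0.24, adjusted p = 0.0387 with edgeR's quasi-likelihood test). In U1 RNA it had 44.1, 78.9 and 51.6 CPM in naive and 133, 56.6 and 103 CPM in MECS brain, which overlap, with a log2 difference of 0.68 (SE 0.25, adjusted p = 0.303). The call in input was lost without naive input library 1 or 2 or without MECS input library 3, with log2 differences of 0.80, 0.90 and 0.77, and with all 12 libraries in 1 fit, at 1.01 (adjusted p = 0.0853). The row of Sv2b itself had 52 counts over the 12 libraries, and no other feature lay in its introns on that strand.

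Gm24840, an snRNA feature opposite to an intron of Clip1, a microtubule-end protein, was also higher after MECS, without passing the test. It had 23.1, 33.2 and 38.4 CPM in naive input and 50.3, 49.2 and 70.3 CPM in MECS input. In U1 RNA the values were 39.2, 49.2 and 25.8 CPM in naive and 90.2, 50.5 and 76.3 CPM in MECS brain. Neither pair of groups overlapped, with log2 differences of 0.81 (SE 0.26, adjusted p = 0.158) and 0.88 (SE 0.25, adjusted p = 0.132) by edgeR. The paired miRNA genes of the dynamins did not pass either. Mir199b had 40.3, 27.4 and 49.0 CPM in naive and 45.8, 59.9 and 68.4 CPM in MECS input, which overlap (log2 difference 0.50, SE 0.24, edgeR adjusted p = 0.513). Mir199a-1 had 12.5 to 46.5 CPM over the 12 libraries.

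Between MECS and naive U1 RNA, 284 members could be tested with edgeR's quasi-likelihood test, and 0 were called, against 0.386% of 11141 features, 0.332% higher and 0.0539% lower. At an unadjusted p under 0.05 there were 27 members higher and 2 lower, against 10.5% of features, 6.18% higher and 4.34% lower, and DESeq2 called 1 member. Of the tested members 41 (14.4%) were higher after MECS with no overlap between groups, against 9.06% of features, and 8 (2.82%) were lower, against 6.43%. The median log2 difference was 0.17 for the tested members and -0.02 for all tested features. In 91 hosts with values for both, it was 0.17 for members and 0.13 for other features in introns of the same host on that strand, with a Spearman's rho of 0.26. With no filter on low counts, all 572 members could be fitted, and the median was 0.19 against -0.05 for all features. Of the members 369 (64.5%) were above 0, against 46.8% of 32337 features. The members have at least 10 counts by rule, whereas those features include any with a count, so the 2 sets differ in their floor. The count of calls turned on 2 libraries, with 6 members called without naive U1 library 2 and 4 without MECS U1 library 2.

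The member with most counts was among those near the threshold. Gm27660 in Dlg2 had 99.1, 138 and 70.6 CPM in naive U1 and 191, 158 and 180 CPM in MECS U1 RNA. Its input levels were 143, 152 and 158 CPM in naive and 143, 140 and 145 CPM in MECS brain. All MECS U1 libraries were above the input libraries of the same state, and all naive U1 libraries were below theirs. The log2 difference of MECS from naive U1 RNA was 0.74 (SE 0.19, edgeR adjusted p = 0.0934), and 1.07 without naive U1 library 2, where it passed. The U1 to input difference in naive brain was -0.52 (SE 0.20, adjusted p = 0.0951), and the U1 to input ratio was higher after MECS by 0.83 on the log2 scale (SE 0.26, adjusted p = 0.997 by edgeR). The neighbouring Gm27470 had 67.3, 117 and 55.1 CPM in naive U1 and 136, 91.8 and 123 CPM in MECS U1 RNA, which overlap.

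**Figure D4:**
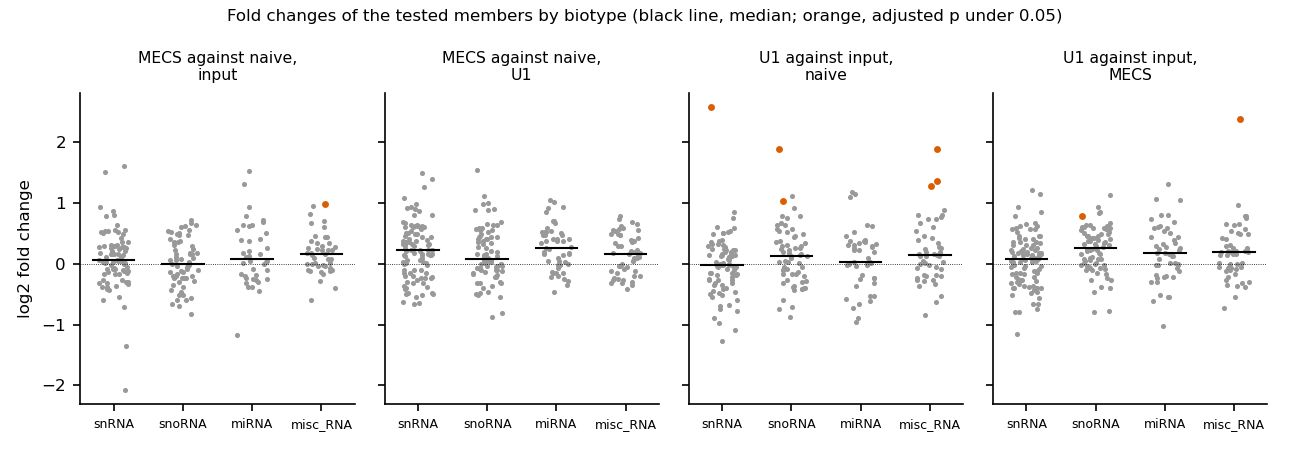
Log2 fold changes (y axis) of the tested members in the 4 comparisons by biotype (x axis), 1 point a member, with the median as a black line and members past an adjusted p of 0.05 in orange. In MECS against naive U1 RNA the medians lie between 0.07 and 0.26 and no point is orange, and all orange points in the U1 to input comparisons are above 0.

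Between U1 and input RNA of naive brain, 241 members could be tested with edgeR. Of these 6 rose and 0 fell (2.49%), against 10.5% of 10918 features called, 4.19% higher and 6.26% lower. Over all features 458 were higher and 683 lower, and with library size scaling 565 were higher and 562 lower. In MECS brain 2 of 278 members (0.719%) rose and 0 fell, against 8.51% of 10791 features, 3.3% higher and 5.21% lower. At an unadjusted p under 0.05, edgeR gave 16 members higher and 9 lower in naive brain, against 21.3% of features, 10.1% higher and 11.2% lower. In MECS brain it gave 19 higher and 4 lower, against 19.9% of features, 9.23% higher and 10.6% lower. With the number that input and U1 libraries share in their titles as a block, edgeR called 4 members in MECS brain, all higher, and 1488 features in place of 918. In naive brain it called 5 members, and the call of Gm24636 was lost (adjusted p = 0.0599). The MECS count was 1 without MECS input library 1 or 3 or MECS U1 library 1. The naive count was 2 without naive input library 1 and 10 without naive U1 library 2, where 5 were higher and 5 lower. Members with groups that did not overlap made up 8.30% higher and 4.15% lower in naive brain, against 12.9 and 12.8% of features, and 11.2 and 2.88% in MECS brain, against 12 and 12.6%. In 77 hosts with values for both in naive brain, the median log2 difference was 0.13 for members and 0.10 for other intron features (rho 0.15). In 85 such hosts in MECS brain it was 0.22 and 0.11 (rho 0.20). The called members are 3 misc_RNA, 2 snoRNA and 1 snRNA features in naive brain, and 1 misc_RNA and 1 snoRNA feature in MECS brain. Gm23221, Gm23302, Gm22506 and Gm24636 passed the filter on low counts only through their U1 libraries, since their input counts were low. The sizes of their differences are therefore uncertain, and the alternative settings reuse the same reads.

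Gm23221, opposite to an intron of Paqr5, a membrane progestin receptor gene, rose in both states. It had 5.14, 7.22 and 15.1 CPM in naive input and 14.7, 38.7 and 49.9 CPM in naive U1 RNA, where naive U1 library 1 lies just below the highest input library. In MECS brain it had 4.44, 6.26 and 8.67 CPM in input and 40.2, 28.3 and 31.6 CPM in U1 RNA, which do not overlap. The log2 differences were 1.90 (SE 0.41, edgeR adjusted p = 0.00166) and 2.39 (SE 0.34, adjusted p = 5.2e-05). Both calls held under all 14 alternative settings, with log2 differences from 1.56 to 2.56 and from 2.14 to 2.63. The row of Paqr5 itself had 475 counts, with log2 differences of 0.60 (SE 0.30, adjusted p = 0.246) and 0.72 (SE 0.25, adjusted p = 0.0855).

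Gm23302, the U6-like feature in Abcc4, a gene of an organic anion transporter, had 0, 4.33 and 4.52 CPM in naive input and 9.79, 17.1 and 24.1 CPM in naive U1 RNA. The groups did not overlap, and the log2 difference was 2.58 (SE 0.60, edgeR adjusted p = 0.00323). This difference was called under all 14 alternative settings, from 1.94 to 3.30, all of which rest on the same low input counts. In MECS brain Gm23302 had 12.6, 4.47 and 7.70 CPM in input and 18.9, 28.3 and 9.92 CPM in U1 RNA, which overlap. The log2 difference there was 1.15 (SE 0.44, edgeR adjusted p = 0.12, and 0.0284 with the replicate number as a block). Another feature in introns of Abcc4 on that strand, Gm49033, had log2 differences of 0.90 (SE 0.55, adjusted p = 0.380) in naive and 1.37 (SE 0.43, adjusted p = 0.0512) in MECS brain.

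The called snoRNA members were all Snora17-like. So were 36 of the 64 snoRNA members tested in naive brain and 43 of the 77 tested in MECS brain. Gm26184, in Dlgap2, a postsynaptic scaffold gene, had 21.4, 26.0 and 43.7 CPM in naive input and 61.2, 74.4 and 51.6 CPM in naive U1 RNA, without overlap (log2 difference 1.03, SE 0.26, edgeR adjusted p = 0.0076). In MECS brain the difference was 0.43 (SE 0.23, adjusted p = 0.303). Gm22506, in the ion channel gene Trpm3, had 0.857, 5.78 and 10.6 CPM in naive input and 15.9, 28.6 and 18.9 CPM in naive U1 RNA, without overlap. Its log2 difference was 1.89 (SE 0.50, edgeR adjusted p = 0.00959), and 0.41 (SE 0.40, adjusted p = 0.644) in MECS brain. Gm24730, in the F-box gene Fbxl17, had 29.6, 47.4 and 28.9 CPM in MECS input and 63.6, 55.9 and 62.0 CPM in MECS U1 RNA, without overlap. Its difference was 0.78 (SE 0.22, edgeR adjusted p = 0.0291), with 0.63 (SE 0.25, adjusted p = 0.119) in naive brain. Without naive input library 1 the calls of Gm26184 and Gm22506 were lost, at log2 differences of 0.80 and 1.33, and that of Gm22506 also without naive U1 library 2, at 1.57. Without naive input library 3 the difference of Gm22506 was 2.93. The call of Gm24730 was lost with DESeq2 and without MECS input library 1 or 3 or MECS U1 library 1 or 3, at 0.77, 0.65, 0.66, 0.75 and 0.77.

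The other called members were misc_RNA features. Gm22136, in the sialyltransferase gene St6galnac3, had 9.43, 13.0 and 9.05 CPM in naive input and 29.4, 20.6 and 25.8 CPM in naive U1 RNA, without overlap (log2 difference 1.29, SE 0.38, edgeR adjusted p = 0.0234). The snoRNA feature Gm22206 of the same intron had 11.1, 7.22 and 13.6 CPM in naive input and 19.6, 24.6 and 26.7 CPM in naive U1 RNA (1.11, SE 0.37, adjusted p = 0.0525). Gm24636, in Wasf2, an actin regulator, had 9.43, 5.78 and 6.03 CPM in naive input and 18.4, 15.6 and 22.4 CPM in naive U1 RNA, without overlap (1.37, SE 0.44, adjusted p = 0.0396). In MECS brain Gm22136 and Gm24636 had log2 differences of 0.41 (SE 0.33, adjusted p = 0.548) and 0.50 (SE 0.39, adjusted p = 0.535). Gm24636 lost its call in 9 of 14 alternative settings and Gm22136 in 6. Of the 6 naive libraries, only leaving out naive U1 library 2 kept both calls.

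**Figure D5:**
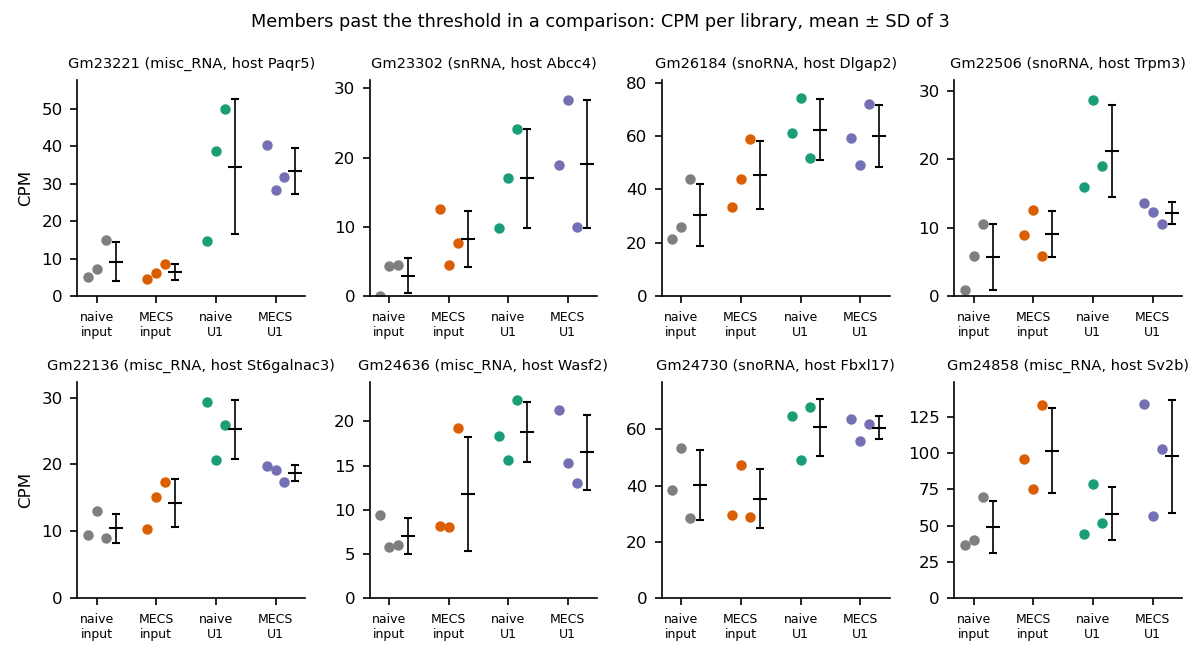
CPM (y axis, from 0) of the 8 members past the threshold in a comparison, in the 12 libraries by group (x axis), with points for libraries and bars for mean ± SD of 3. For Gm23221 the MECS U1 libraries, 28.3 to 40.2 CPM, lie above all 6 input libraries, and for Gm24858 the MECS input libraries lie above the naive input libraries.

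Markers of cell types also differed between input and U1 RNA of these libraries. The 9 neuron markers, all with at least 10 counts, summed to 247 to 409 CPM in naive input and 88.9 to 189 CPM in naive U1, and to 250 to 367 and 101 to 144 CPM in MECS brain. The 5 oligodendrocyte markers summed to 305 to 539 against 100.0 to 102 CPM in naive brain, and the 6 astrocyte markers to 194 to 404 against 83.9 to 136 CPM. In MECS brain the ranges were 359 to 549 against 99.3 to 140 CPM and 219 to 236 against 84.3 to 97.7 CPM. The 4 endothelial markers summed to 67.7 to 99.7 against 99.1 to 186 CPM in naive and 53.0 to 85.9 against 102 to 135 CPM in MECS brain. The 4 microglia markers were lower in U1 RNA without overlap, at 271 to 307 against 223 to 266 CPM in naive and 250 to 293 against 239 to 245 CPM in MECS brain. The 8 markers of pericytes and smooth muscle summed to 425 to 552 against 552 to 598 CPM in naive brain, where U1 was higher without overlap, and to 469 to 517 against 462 to 500.1 CPM in MECS brain, which overlap. The 3 of choroid plexus summed to 18.0 to 39.0 against 4.52 to 14.7 CPM in naive brain, without overlap, and to 1.93 to 20.6 against 4.34 to 7.65 CPM in MECS brain, which overlap. Over the 12 libraries the 3 blood markers summed to 303 to 433 CPM and the 3 of skeletal muscle to 24.4 to 54.9 CPM. Single rows held much of some sums. Alas2 had 5554 of 5554 blood counts, Csf1r 2589 of 3807 microglia counts and Nos3 962 of 1577 endothelial counts. Of 7610 counts of pericytes and smooth muscle, Pln had 2953 and Notch3 2326. The strand counted is not stated for these rows either. Of all these markers only Hbb-bs and Hba-a1, of blood, were at 0, and the part of cell composition in the differences of the members was not tested. Only 1 member had a marker as its host. Gm22388, in the oligodendrocyte gene Mog, had 36.0, 18.8 and 24.9 CPM in naive input and 20.8, 22.1 and 24.1 CPM in naive U1 RNA, which overlap.

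The 4 comparisons share libraries, and their calls are not independent. The difference between the 2 states in the U1 to input ratio was tested for 309 members with the interaction term of edgeR's model. It was called for 0 members and 0 of 12184 features (0%), and DESeq2 also called 0. At an unadjusted p under 0.05 there were 9 members higher and 1 lower, against 3.14% of features, 1.62% higher and 1.53% lower. Thus the U1 to input differences of Gm23302, Gm26184, Gm22506, Gm22136 and Gm24636, called in naive and not in MECS brain, were not shown to differ between states, with an adjusted p of 0.997 for each. The named miRNA with the widest interaction was Mir181a-2 in Nr6a1, a nuclear receptor gene. It had 10.3, 15.9 and 15.8 CPM in naive input, 4.90, 11.1 and 3.44 CPM in naive U1, 8.13, 7.16 and 2.89 CPM in MECS input and 11.4, 15.3 and 12.4 CPM in MECS U1 RNA, an interaction of 2.01 on the log2 scale (SE 0.66, adjusted p = 0.997 by edgeR).

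Summed by host, the 4 Dlg2 members had 266 ± 11.5 CPM in naive input, 281 ± 5.86 in MECS input, 207 ± 73.1 in naive U1 and 332 ± 41.2 in MECS U1 RNA (SD, n = 3 each). The 3 Lsamp members had 100.0 ± 16.0, 128 ± 30.4, 99.8 ± 11.9 and 124 ± 17.3 CPM in the same order. The 3 members in Tut4, which adds uridines to RNA ends, had 46.6 ± 11.6, 49.6 ± 7.93, 30.4 ± 9.03 and 51.5 ± 9.78 CPM, and the 3 in St6galnac3 24.5 ± 3.15, 34.0 ± 4.85, 58.7 ± 7.47 and 48.4 ± 10.0 CPM. The 4 in Il1rapl2, a synaptic adhesion gene, stayed between 10.4 ± 3.08 and 18.0 ± 2.25 CPM. The mean St6galnac3 sum was above input in U1 RNA in both states, and the mean Dlg2 sum was lower in naive U1 and higher in MECS U1 RNA than in the input of the same state. Gm22478 in Snrnp70 had 62.6, 65.0 and 65.6 CPM in naive input and 39.2, 41.7 and 45.6 CPM in naive U1 RNA, without overlap, and did not pass the test (log2 difference -0.59, SE 0.22, edgeR adjusted p = 0.0919). In MECS brain it had 63.6, 60.8 and 81.9 CPM in input and 81.8, 60.5 and 49.0 CPM in U1 RNA, which overlap. Summing the members of a host before the edgeR fit gave the same numbers of calls, 1, 0, 6, 2 and 0 in the 5 comparisons.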

How the data were processed

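The 12 tables of raw counts per gene, as deposited by the authors, were read for all 12 libraries. The submitters' processing notes name Trimmomatic 0.39, FastQC, HISAT2 2.2.0, StringTie 2.1.3, Salmon 1.4, DESeq2 and the build mm10, and the sources used here do not state the counter, its strand setting or the annotation. Of 55471 feature identifiers, 55144 matched GENCODE M21. Rows that name no gene stayed out of library sizes.

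Each comparison was fitted over all features with edgeR 4.0.16 in R 4.3.3 (filterByExpr, TMM, quasi-likelihood test, Benjamini-Hochberg adjustment, threshold 0.05), using only the 2 groups compared, or all 12 libraries for the interaction. The code was tested on simulated data. Alternatives were other scalings and filters, DESeq2 1.42.0, 1 fit of all libraries, a block on replicate number and each library left out in turn. Shares were compared by exact permutation tests. Deviations of same-numbered input and U1 libraries from their group means correlated at 0.02, -0.10 and -0.02 in naive and 0.11, 0.22 and 0.12 in MECS brain over 12184 features. Those of differently numbered libraries ranged from -0.07 to 0.07 in naive and from -0.14 to 0.02 in MECS brain. A pairing was thus not seen in naive brain. In MECS brain the correlations were weak, and 3 libraries of each kind cannot establish it. The labels do not state it for either. Relatives were found with BLAST 2.17.0.

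The members and the lists (spliceosomal snRNA, other abundant noncoding RNA, brain miRNA and cell type markers) were chosen with earlier results of these data known. Members were named where called, among the 5 of a biotype with most counts, in the 6 hosts with most members or member counts, or among the 25 named symbols with most counts. Gm22388, Gm26274, Gm24491, Gm24622, Gm25828 and Gm27843 were chosen after their values were seen. Some items are not reported here.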

Additional observations from a re-analysis of the deposited data

How the results depend on the processing

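Between MECS and naive input RNA, edgeR called 63 features and 1 member. The counts were 129 and 3 with library size scaling, 111 and 3 with no filter, 97 and 2 with a filter on CPM, and 0 members with all 12 libraries in 1 fit. Leaving out 1 library gave 19 to 114 features and 0 to 2 members, with 0 members without naive input library 1 or 2 or MECS input library 3 and 2 without MECS input library 2. Between MECS and naive U1 RNA the 43 features and 0 members became 151 and 4 with no filter, 92 and 1 with a filter on CPM, 86 and 1 with DESeq2 and 88 and 2 with all 12 libraries. Leaving out 1 library gave 13 to 225 features, the lowest without MECS U1 library 1 and the highest without naive U1 library 2, and 0 to 6 members. Gm27660 passed in 5 of 14 alternatives. For U1 against input RNA, leaving out 1 library gave 711 to 1254 features and 2 to 10 members in naive brain, and 613 to 894 features and 1 to 2 members in MECS brain, where DESeq2 called 1 member. The interaction had 1 feature with library size scaling, no filter, a filter on CPM and the replicate block, 0 to 1 when 1 library was left out, and 0 members in all 22 alternatives. The difference in the share of gene counts, in percentage points, ranged over single libraries left out from 0.0522 to 0.103 and 0.0625 to 0.118 for MECS against naive input and U1 RNA. For U1 against input RNA it ranged from 0.0301 to 0.0855 in naive and 0.0453 to 0.0921 in MECS brain. The alternatives were followed for some of the named members, each in selected comparisons. None of these member results, and no difference in share, reversed its direction in any alternative run. The excess of lower over higher calls among all features for U1 against input RNA in naive brain, 683 against 458, was lost with library size scaling, at 562 against 565. The cause of these changes was not tested.

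With the replicate block the counts were 142 features and 3 members for MECS against naive input, 35 and 0 for U1 RNA, 1043 and 5 for U1 against input RNA in naive brain and 1488 and 4 in MECS brain. In the first 2 of these the samples share only a number. In neither state do the labels say whether the number ties an input to a U1 library. The deviations did not show such a tie in naive brain and could not establish it in MECS brain.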
